A study of Homo sapiens with 26 samples.

Results

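The 35 human genes described here encode aminoacyl-tRNA synthetases, the enzymes that join each amino acid to its tRNAs. They were listed by name and not by a cut on any measured value, but with earlier results of these data known. The study had already reported tRNA synthetases as enriched among its long mitochondrial genes translated at the outer mitochondrial membrane. Ribosome profiling had 57770 genes with an entry of their own, and RNA-seq had 60663 genes. There are 16 mitochondrial enzymes, AARS2, CARS2, EARS2, FARS2, HARS2, IARS2, LARS2, MARS2, NARS2, PARS2, RARS2, SARS2, TARS2, VARS2, WARS2 and YARS2. The 17 cytosolic enzymes are AARS1, CARS1, EPRS1, FARSA, FARSB, HARS1, IARS1, LARS1, MARS1, NARS1, QARS1, RARS1, SARS1, TARS1, VARS1, WARS1 and YARS1. GARS1 and KARS1 each supply both compartments from a single gene, and are counted with the cytosolic enzymes below, which makes 19.

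Mitochondria keep a translation system of their own for the few proteins encoded in their DNA, and it needs tRNAs charged inside the matrix. The enzymes that charge them are encoded in the nucleus, translated on cytosolic ribosomes and imported, mostly through an N-terminal presequence that carries arginine and lysine and few acidic residues. For most amino acids the cytosolic enzyme is a paralog from another gene without such a presequence, so that the same enzymatic activity is made for opposite sides of the mitochondrial membranes. Several cytosolic enzymes (EPRS1, IARS1, LARS1, MARS1, QARS1, RARS1 and KARS1) are subunits of the multisynthetase complex.

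Ribosomes were labelled by location in HEK293T, a line derived from human embryonic kidney. The cells carry an Avi tag, the substrate of the biotin ligase BirA, on their own copy of the large subunit protein RPL29. LOV-BirA, a ligase switched on by blue light, sat at the ER (as a Sec61β fusion under the SFFV promoter), at the outer mitochondrial membrane (OMM, by the transmembrane domain of OMP25) or in the cytosol (these both under the EF1α promoter). Footprints were sequenced from the streptavidin pulldown and from the total input of the same lysate, with 2 replicates a location and 12 libraries, all made with cycloheximide (CHX), which halts elongating ribosomes. The 14 RNA-seq libraries held whole transcripts pulled down with the OMM ligase and their total inputs. They came from wild-type cells that had received a negative control gRNA, from cells null for AKAP1 and from cells null for LARP4, with 2 replicates each, and from cells without CHX, with 1, for which the methods of the study give a shorter induction with biotin and light. Both null lines are single monoclonal clones, so a genotype and its clone cannot be told apart, and CHX in these 3 lines is taken from the general protocol of the study. The study speaks of biological replicates for the OMM footprints, but neither it nor the labels say that replicates were separate cultures, so the p-values measure the spread between these samples, which may be technical.

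Footprint libraries held 1025114 to 19539527 counts in coding sequences (CDS), the fewest in the OMM pulldown of replicate 1, and RNA-seq libraries 38347615 to 100840544 counts. The ER pulldown was higher than its total input for 8 of 8 tested genes of secreted or membrane proteins, with a median log2 enrichment of 2.15, and lower for 6 of 6 tested cytosolic glycolytic or cytoskeletal genes, with a median of -0.83. Of all 7381 genes tested in CDS counts at the ER, 19.8% were called higher and 72.0% lower, with a median of -0.68. A lower value there was thus the usual result. In the 7 RNA-seq total inputs the HEK293 marker VIM was at 442 to 692 CPM (counts scaled to the same library total) and PAX2 at 5.25 to 10.3 CPM, and MYH7 and INS of heart and pancreas were at 0.02 CPM or less.

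The first codons show where the presequences of the mitochondrial enzymes begin. The first 30 coding bases of the canonical GENCODE 44 transcripts are given for 4 pairs whose footprints differed by much or by little at the OMM, with the codons of arginine and lysine in capitals. In so short a stretch LARS1 holds 3 such codons and LARS2 1.
IARS2: atgCGTtgggggctgCGCcctCGCgggccg
IARS1: atgcttcaacaagttccagaaaacataaat
LARS2: atggcttctgtttggcagAGAttgggtttt
LARS1: atggcggaaAGAAAAggaacagccAAAgtg
AARS2: atggcagcgtcagtggcagctgcagccCGG
AARS1: atggactctactctaacagcaagtgaaatc
WARS2: atggcgctgcactcaatgCGGAAAgcgCGT
WARS1: atgcccaacagtgagcccgcatctctgctg
Over the first 40 codons, all 16 mitochondrial members had more codons for arginine and lysine (4 to 10, median 6.5) than for aspartate and glutamate (0 to 4, median 1). Of the 17 cytosolic members 2 did, LARS1 and TARS1, and their median was 4 basic against 7 acidic codons. WARS2 and AARS2, far apart in their enrichment at the OMM, had the same excess of basic over acidic codons, 8. Whether the excess of basic codons goes with the enrichment at the OMM was not tested. The excess was only 1 in MARS2 and RARS2, as in the cytosolic LARS1 and TARS1. The canonical transcripts of the dual genes KARS1 and GARS1 had an excess of 4 and 7. The 40 codons read in GARS1 lie before its next in-frame ATG at codon 55, so they are absent from its shorter form. An excess of basic codons was present as well in LARS1, TARS1 and the canonical KARS1, and was thus not limited to mitochondrial members.

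The dual enzymes differ in how a single gene yields both forms. KARS1 uses alternative splicing, and its canonical transcript encodes the cytosolic protein of 597 codons while the longest coding transcript, of 625 codons, begins differently. GARS1 uses alternative start codons, and the next in-frame ATG after the canonical start is at codon 55, which leaves 685 of 739 codons. Both starts of each gene are shown with the ATG in capitals.
KARS1 canonical: ATGgcggccgtgcaggcggccgaggtgaaa
KARS1 longest: ATGttgacgcaagctgctgtaaggcttgtt
GARS1 canonical: ATGccctctccgcgtccagtgctgcttaga
GARS1 from codon 55: ATGgacggcgcgggggctgaggaggtgctg
Counts are per gene in these files, so footprints of the mitochondrial and cytosolic forms of KARS1 and GARS1 were not separated.

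The CDS count of an entry is taken to cover only positions that are coding in every annotated isoform that holds them. The counted length matched that part in GENCODE 44 only for MARS2, PARS2 and YARS2. The study also masked positions where reads cannot align uniquely, and the share of each was not tested. For many synthetases the counted length is a small part of the coding sequence. For the 33 members with an entry of their own, the counted length was 3.9% (RARS1) to 104.4% of the canonical coding length. It was under 50% for 17 of them, 13 of the 19 cytosolic and dual and 4 of the 14 mitochondrial genes. Counts over all exons of the gene do not have this limit but include footprints in untranslated regions, and they are given beside the CDS counts below. SARS2 and VARS2 have footprints only in entries that they share with overlapping genes. Coding sequences of mitochondrial members are long, from 360 codons (WARS2) to 1063 (VARS2).

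Per kilobase of canonical coding sequence, mitochondrial synthetases had fewer footprints than most cytosolic ones. Footprints over all exons, with untranslated bases, were divided by that length. The 6 total inputs are 2 replicates at each of the 3 ligase locations, so the SD also holds differences between those lines. Over the 6 total inputs, their mean level ran from 11.1 ± 2.4 RPM (footprints scaled to the same library total) per kilobase (SD, n = 6) for AARS2 to 49.7 ± 9.6 for IARS2, with a median of 23.9 over 14 genes. The 19 cytosolic and dual genes ran from 46.6 ± 21 (CARS1) to 407 ± 128 (YARS1), with a median of 168. RNA in the wild-type total inputs, scaled to the same library total and per kilobase of the gene length in the files, had medians of 9.96 for the mitochondrial and 37.7 for the cytosolic and dual members. These are descriptions of the levels, with no test.

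At the OMM, footprints of most mitochondrial synthetases were higher in the pulldown than in the total input, and those of the cytosolic enzymes were lower. Over all exons, 12 of the 14 mitochondrial members with an entry were called higher, by edgeR's quasi-likelihood test with an adjusted p under 0.05, while 16.5% of 8431 genes tested were called higher. The 2 not called were PARS2 and WARS2. All 19 cytosolic and dual members were called lower, where 49.0% of all genes were. The median log2 enrichment was 1.5 for the mitochondrial members, -0.77 for the cytosolic and dual members and -0.38 over all genes. In the CDS counts 11 mitochondrial members passed the minimum of 64 footprints and 9 were called higher (17.0% of 6728 genes were). Of 17 cytosolic and dual members tested there, 14 were called lower (46.0% of genes), which became 6 of 17 with TMM scaling, a normalisation under which the median over all genes was -0.06 in place of -0.38 and 25.8% of genes were called higher and 24.4% lower. Under TMM 9 mitochondrial members were called higher too, and with TMM on exon counts 18 of 19 cytosolic and dual members were called lower (25.6% of genes). The 14 cytosolic and dual calls in CDS counts became 9 without OMM replicate 1 and 8 without OMM replicate 2, while those over exons numbered 19 with either left out.

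**Figure D1:**
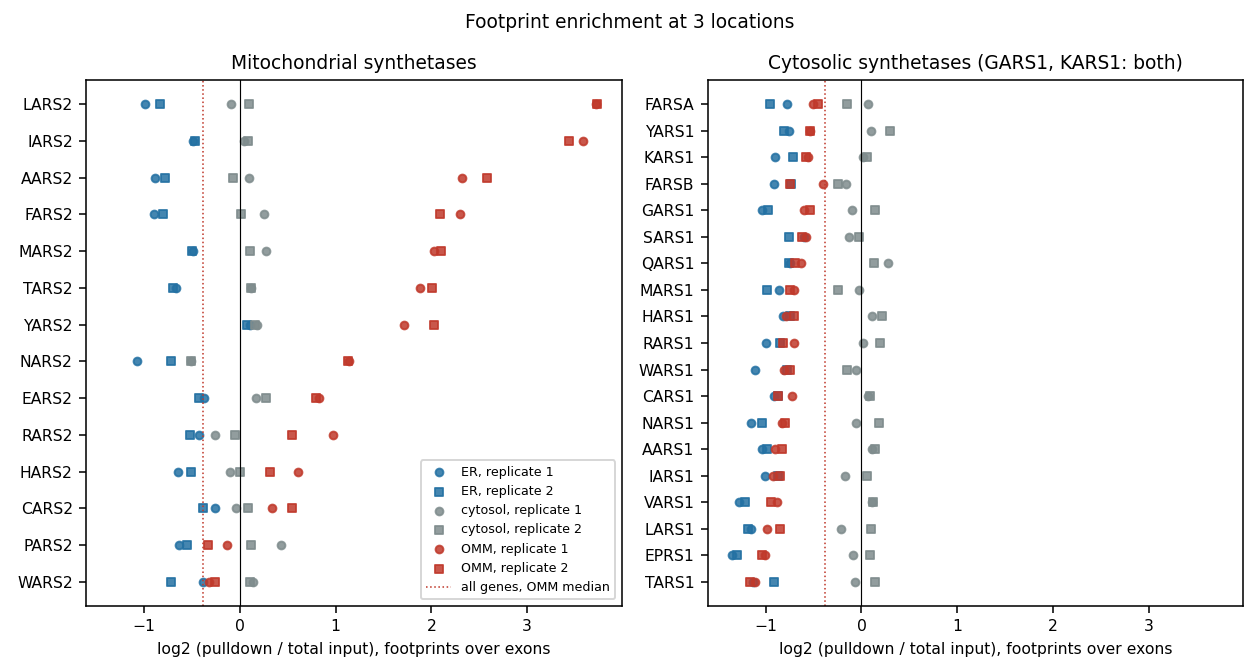
Log2 ratio of pulldown to total input in RPM over all exons (x axis), for each mitochondrial synthetase (left) and each cytosolic or dual synthetase (right), with 1 point per lysate coloured by location and the median of all genes at the OMM as a dotted line. Red OMM points of LARS2 and IARS2 lie above 3.4, those of WARS2 and PARS2 lie among the other locations, and OMM points of all 19 cytosolic and dual genes lie below 0.

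IARS2 and LARS2, the enzymes for isoleucine and leucine, led the mitochondrial members. IARS2 (chr1:220094132-220148041, 23 exons) had 139 and 165 RPM in the total inputs of the 2 lysates and 1669 and 1794 in the pulldowns. LARS2 (chr3:45388561-45554726, 22 exons) had 83.5 and 69.6 in the total inputs and 1095 and 925 in the pulldowns. In both genes and both lysates the pulldown stood more than 10 times above its input. The fitted log2 enrichment over exons was 3.51 for IARS2 and 3.72 for LARS2, and in CDS counts 3.54 ± 0.10 (SE, adjusted p = 1.54e-14) for IARS2. Only 10.1% of the LARS2 coding length was counted, which left it under the minimum in the CDS counts.

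AARS2, FARS2, MARS2, TARS2 and YARS2, for alanine, phenylalanine, methionine, threonine and tyrosine, formed a middle group. AARS2 (chr6:44298731-44313347) went from 42.7 and 28.8 RPM in the inputs to 214 and 172 in the pulldowns. FARS2 (chr6:5261044-5829192), a gene of low level, went from 16.6 and 15.4 to 81.8 and 65.8. MARS2 (chr2:197705369-197708395), which has a single exon, went from 51.4 and 34.5 to 209 and 148. Both pulldowns were above both inputs in each of these genes. The fitted log2 enrichment over exons was 2.45 for AARS2, 2.19 for FARS2, 2.06 for MARS2, 1.94 for TARS2 and 1.88 for YARS2, all called, and replicate lysates differed by at most 0.31 in these 5.

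NARS2, EARS2, RARS2, CARS2 and HARS2, for asparagine, glutamate, arginine, cysteine and histidine, were called with smaller values. Their log2 enrichment over exons was 1.13, 0.81, 0.72, 0.47 and 0.44. EARS2 also charges the glutamine tRNA of mitochondria with glutamate, which an amidotransferase then converts. RARS2 had 34.3 and 47.0 RPM in the inputs and 67.1 and 68.4 in the pulldowns, with log2 ratios of 0.97 and 0.54, the widest gap between lysates, 0.43, of the 33 genes at the OMM. The median gap was 0.07.

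WARS2 and PARS2, the tryptophan and proline enzymes, were not higher in the OMM pulldown. WARS2 (chr1:119031216-119140654) had 47.4 and 44.9 RPM in the total inputs and 37.8 and 37.6 in the pulldowns. PARS2 (chr1:54756898-54764523) had 25.4 and 21.0 in the inputs and 23.2 and 16.7 in the pulldowns, of which the first rests on 38 footprints. Both genes had a lower value in the pulldown of each lysate. The log2 enrichment in CDS counts was -0.31 ± 0.16 for WARS2 (edgeR, adjusted p = 0.0932) and -0.25 for PARS2 (edgeR, adjusted p = 0.272), close to the -0.38 of all genes. WARS2 has the shortest coding sequence of the mitochondrial members and PARS2 has 475 codons, beside 451 in FARS2 and 477 in YARS2, which were enriched.

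The entries that hold the remaining mitochondrial members are shared. The entry with VARS2 and its overlapping neighbours had log2 ratios of 1.30 and 1.45 in the OMM lysates, and the entry with SARS2 and its neighbours 0.60 and 0.55. Footprints of each synthetase cannot be separated from those of its neighbours there, so neither is counted above.

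Subunits of the multisynthetase complex and the free cytosolic enzymes had like values at the OMM. Over exons the 7 complex subunits were all called lower, from -1.02 to -0.57 with a median of -0.77. The other 12 cytosolic and dual members were all called lower, from -1.14 (TARS1) to -0.48 (FARSA) with a median of -0.76. IARS1, of the complex, had 655 and 736 RPM in the inputs and 346 and 409 in the pulldowns. LARS1, also of the complex and the paralog of LARS2, had 344 and 398 in the inputs and 174 and 220 in the pulldowns, with pulldowns of both genes below both inputs.

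KARS1 and GARS1, whose products also enter mitochondria, were lower in the OMM pulldown over exons. KARS1 had 270 and 296 RPM in the inputs and 183 and 199 in the pulldowns, and GARS1 432 and 442 in the inputs and 285 and 304 in the pulldowns. Their fitted log2 values were both -0.57, at the upper side of the cytosolic range of -1.14 to -0.48. In CDS counts, where 11.2% of the coding length of GARS1 is counted, its value was 0.15 and not called, and KARS1 did not reach the minimum.

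The ER and the cytosol served as other locations for the same ribosomes. At the ER, 13 of 14 mitochondrial and 19 of 19 cytosolic and dual members were called lower over exons, as were 72.0% of all genes, whose median was -0.65. Mitochondrial members ran from -0.91 (LARS2) to -0.32 (CARS2), apart from YARS2 at 0.09, which was not called, and cytosolic and dual ones from -1.32 (EPRS1) to -0.68 (SARS1). The count of lower mitochondrial members at the ER was 11 of 13 in CDS counts (72.0% of genes) and 1 of 13 with TMM (25.4% of genes), where the CDS values of 10 synthetases turned positive. In the cytosol 1 member was called over exons, NARS2 at -0.51 (2 members with either cytosolic replicate left out), while 6.84% of 8979 genes were called lower and 3.58% higher.

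In CDS counts, 4 cytosolic members were called lower in the cytosolic pulldown, TARS1 at -3.21, QARS1 at -1.89, RARS1 at -0.94 and IARS1 at -0.36 (edgeR, where 5.96% of 7162 genes were called lower and 2.02% higher). The RPKM of TARS1 was 116 and 191 in the inputs and 24.9 and 12.01 in the pulldowns, and that of QARS1 43.5 and 44.8 in the inputs and 19.8 and 8.15 in the pulldowns. Over all exons the log2 ratios of TARS1 were -0.06 and 0.14 and those of QARS1 0.28 and 0.13. The counted CDS is 10.1% of the coding length in TARS1, 12.4% in QARS1, 3.9% in RARS1 and 8.9% in IARS1, and these 4 calls rest on those parts of the genes.

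The enrichment at the OMM exceeded that in the cytosol for 12 of 14 mitochondrial members over exons, by the test of the difference itself (15.9% of 8254 genes were higher). The difference was lower for PARS2, -0.53 and called, and not called for WARS2. The CDS counts gave 8 of 11, and TARS2 was not called there, at 0.09 ± 0.24 (edgeR, adjusted p = 0.778). All 19 cytosolic and dual members were lower over exons, where 42.0% of genes were. In CDS counts 8 of 17 were lower (39.7% of 6465 genes) and 2 higher (16.6%), TARS1 at 2.27 and RARS1 at 1.07, whose values over exons were -1.17 and -0.87. Against the ER, 12 of 14 mitochondrial members were higher over exons (30.2% of 8395 genes) and 9 of 11 in CDS counts (31.1%), led by IARS2 at 4.08 ± 0.13 (edgeR, adjusted p = 2.05e-13). Of the cytosolic and dual members 4 of 19 were higher than at the ER over exons (1 without OMM replicate 1, 0 without OMM replicate 2), and none with TMM.

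**Figure D2:**
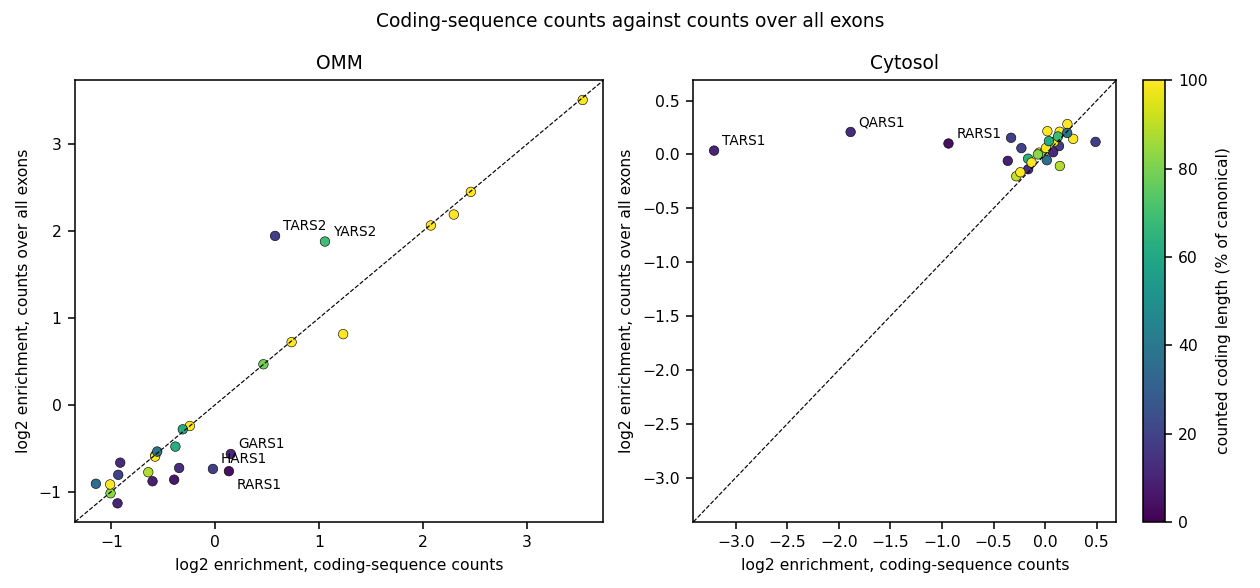
Log2 enrichment of each tested synthetase from counts in coding sequences (x axis) against that from counts over all exons (y axis), at the OMM (left) and in the cytosol (right), with the counted share of the canonical coding length as colour and a dashed line of equal values. TARS2 and YARS2 lie above the line at the OMM, GARS1, HARS1 and RARS1 below it, and TARS1 and QARS1 lie far to the left of it in the cytosol.

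YARS2 and TARS2 differed between the counted part and the rest of the gene. In YARS2 (chr12:32727490-32755897, 5 exons, 477 codons) the counted 989 coding bases match codons 1 to 330 of the GENCODE 44 sequence. In this part the OMM lysates had 640 and 542 footprints in the inputs and 259 and 533 in the pulldowns, with log2 ratios of RPKM of 0.98 and 1.09. Outside it, which takes in the later codons and untranslated bases, they had 105 and 143 in the inputs and 233 and 757 in the pulldowns, with log2 ratios of 3.46 and 3.52. The log2 ratio outside the counted part was thus above that inside it in both OMM lysates, and the codons after 330 cannot be told apart from untranslated bases there. Outside it the log2 ratios were -0.72 and -0.74 at the ER and -0.06 and -0.23 in the cytosol. TARS2 had log2 ratios of 0.55 and 0.56 in the counted 18.1% of its coding length and of 2.15 and 2.31 outside it, and where the counted bases of TARS2 lie is not known. These comparisons of parts of a gene were chosen after the counted lengths were seen and carry no test.

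Paralogs of the same amino acid can be set against each other within a lysate, as the difference in log2 enrichment between the mitochondrial and the cytosolic gene. EPRS1 stands for both glutamate and proline, and phenylalanine takes the mean of FARSA and FARSB. At the OMM, over exons, the mitochondrial gene was the higher in both lysates for 14 of 14 amino acids, by 0.49 (tryptophan) to 4.64 (leucine), with a median of 2.18. The differences in the 2 lysates were 4.70 and 4.58 for leucine, 4.50 and 4.29 for isoleucine, 3.23 and 3.41 for alanine and 2.99 and 3.16 for threonine. At the low end they were 0.87 and 0.71 for proline and 0.49 and 0.49 for tryptophan, where both paralogs were below 0. At the ER the mitochondrial gene was the higher for 13 of 14 but with a median of 0.41, and in the cytosol for 6 of 14 with a median of 0.07. From RPKM of coding sequences the count at the OMM was 13 of 14, and histidine, whose HARS2 has 7.1% of its coding length counted, lay at -0.14. HARS1 and HARS2 are neighbours on opposite strands and share 108 bases (chr5:140691430-140691537), where RNA-seq reads of the pair cannot be told apart without strand.

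**Figure D3:**
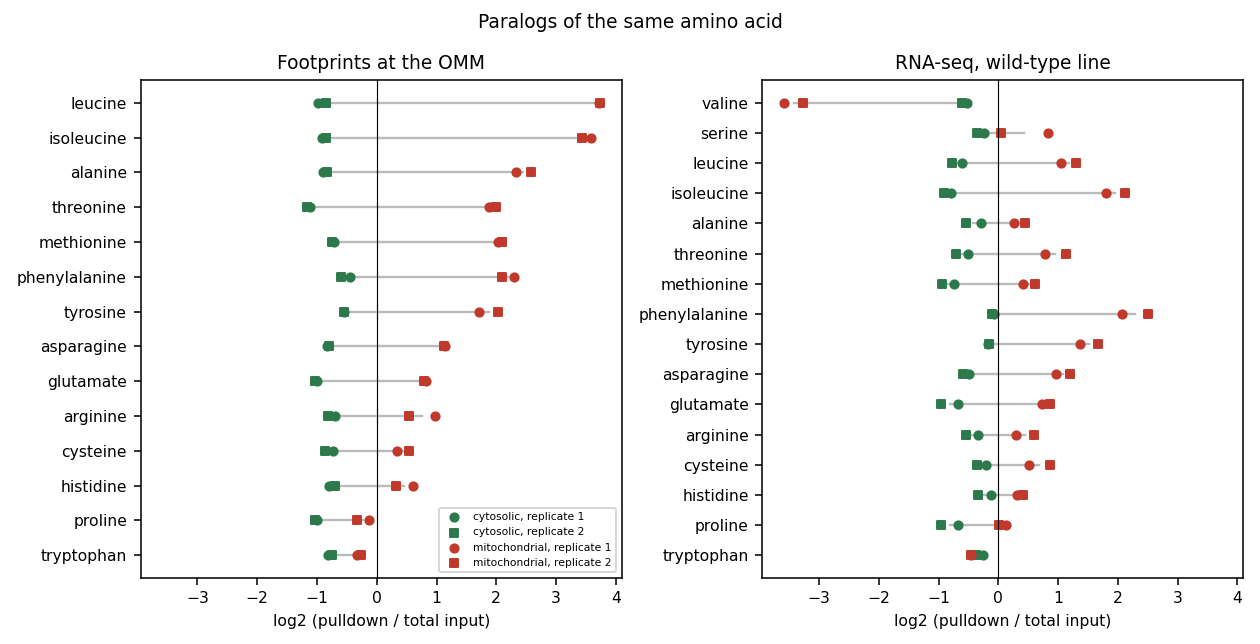
Log2 ratio of pulldown to total input for the mitochondrial (red) and cytosolic (green) paralogs of each amino acid, for footprints over exons at the OMM (left) and for RNA-seq of the wild-type line (right), with 1 point per lysate and a grey line between the means of the paralogs. At the OMM the red points lie to the right of the green ones in all 14 rows, and in RNA-seq in 14 of 16, tryptophan and valine being the exceptions.

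Whole transcripts pulled down with the OMM ligase were then compared with their total inputs. AKAP1, which encodes an RNA-binding protein anchored in the OMM, and LARP4, which encodes an RNA-binding protein that associates with it, were the genes targeted in the null lines. AKAP1 RNA was at 115 and 119 CPM in the wild-type total inputs and at 32.2 and 20.3 CPM in the AKAP1 null line, though the log2 change of -2.15 ± 0.22 was not called across all genes (edgeR, adjusted p = 0.242). LARP4 RNA was at 225 and 231 CPM in the wild type and at 79.3 and 74.0 CPM in the LARP4 null line (log2 change -1.56 ± 0.12, edgeR, adjusted p = 0.0405). With the replicate number as a block that call was lost, with 0 of 13977 genes called and 563 at an unadjusted p under 0.05, and it was lost as well without any 1 of the 4 lysates, where 0 genes were called lower. Each targeted gene was thus lowest in the line labelled with its loss.

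In the wild-type line, 11 of 15 mitochondrial synthetases above the minimum of 64 reads on average were higher in the RNA pulldown and 1 was lower, where 20.2% of 13856 genes were higher and 45.6% lower. FARS2 led at 2.29, followed by IARS2 at 1.96, YARS2 at 1.52, LARS2 at 1.17, NARS2 at 1.08 and TARS2 at 0.96. EARS2 (0.80), CARS2 (0.69), MARS2 (0.51), RARS2 (0.45) and HARS2 (0.36) were called with smaller values. SARS2 at 0.44, AARS2 at 0.35 and PARS2 at 0.06 were not called, and WARS2 was lower at -0.46. VARS2, with 43 to 115 reads in a total input and 6 to 17 in a pulldown, was under the minimum. AARS2, whose footprints were enriched with a log2 of 2.45 at the OMM, and LARS2 with 3.72, thus had smaller values in RNA, though the 2 data sets come from different pulldowns and their difference was not tested.

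Of the cytosolic and dual members 15 of 19 were lower in the wild-type RNA pulldown, a median of -0.38 against -0.28 over all genes, and 6 of 19 with TMM, where CARS1 and HARS1 turned positive, or 7 without wild-type replicate 2. TMM brought the shares of all genes called to 31.0% higher and 27.8% lower. IARS1 was lowest at -0.85. YARS1, FARSB and FARSA, at -0.16, -0.13 and -0.03, were not called. The 7 complex subunits had a median of -0.69 and the other 12 one of -0.30. KARS1, also a complex subunit, was the only one of the 19 called higher, at 0.29, with log2 ratios of 0.31 and 0.28 in the 2 lysates, and GARS1 was lower at -0.31. Within lysates, the mitochondrial paralog had the higher RNA enrichment for 14 of 16 amino acids, with a median difference of 1.16. The exceptions were tryptophan and valine, and valine rests on VARS2, with 6 and 7 reads in the wild-type pulldowns.

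The RNA of most mitochondrial synthetases was more enriched in the AKAP1 null line than in the wild type. By the test of the difference in enrichment between the lines, 11 of 15 were higher in the AKAP1 null line, where 6.52% of genes were higher and 7.96% lower. None of the 19 cytosolic and dual members was called in edgeR, 4 of them had an unadjusted p under 0.05, all higher, and DESeq2 called 0. Of all 13856 genes, 4620 had an unadjusted p under 0.05 in edgeR, in either direction. The median difference was 1.14 for the mitochondrial and 0.20 for the cytosolic and dual members, against 0.19 over all genes. With TMM the median over all genes was 0.015, with 285 genes higher and 1424 lower in place of 903 and 1103. The mitochondrial calls numbered 11 again and the medians were 0.97 and 0.03.

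LARS2 had the largest difference, 1.66 ± 0.15 on the log2 scale (edgeR, adjusted p = 0.00044). Its RNA went from 109 and 85.4 CPM in the wild-type inputs to 226 and 210 in the pulldowns, and in the AKAP1 null line from 78.6 and 90.0 in the inputs to 503 and 711 in the pulldowns. IARS2 went from 158 CPM in both wild-type inputs to 550 and 687 in the pulldowns, and in the null line from 126 and 144 to 969 and 1763. YARS2 went from 40.7 and 36.8 CPM to 105 and 117 in the wild type, and from 29.8 and 35.6 to 203 and 307 in the null line. In all 3 genes the inputs of the lines were near each other and both null pulldowns lay above both wild-type pulldowns.

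The other calls were SARS2 at 1.39, IARS2 and TARS2 at 1.31, AARS2 at 1.27, EARS2 at 1.26, MARS2 at 1.14, FARS2 at 1.04, NARS2 at 1.03 and HARS2 at 0.95, after YARS2 at 1.42. CARS2 at 0.45 (edgeR, adjusted p = 0.0834), RARS2 at 0.44, PARS2 at 0.41 and WARS2 at 0.39 (edgeR, adjusted p = 0.0671) were not called. The log2 enrichment of AARS2 was 0.27 and 0.44 in the wild-type lysates and 1.30 and 1.95 in the null ones, and that of SARS2 0.84 and 0.04 in the wild type and 1.62 and 2.04 in the null. WARS2 moved from -0.46 in both wild-type lysates to 0.04 and -0.17. Both null lysates were above both wild-type lysates in 16 of 16 mitochondrial members, where 54.5% of 13427 genes had this order, and in 16 of 19 cytosolic and dual ones. With 1 lysate left out the count of mitochondrial calls was 10 without AKAP1 null replicate 1, 4 without AKAP1 null replicate 2, 5 without wild-type replicate 1 and 6 without wild-type replicate 2, and EARS2, LARS2, TARS2 and YARS2 were called in each.

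The cytosolic and dual members differed between these lines by -0.07 (QARS1) to 0.38 (GARS1, edgeR, adjusted p = 0.0736). KARS1 had log2 enrichments of 0.31 and 0.28 in the wild type and 0.28 and 0.24 in the AKAP1 null line. Within the null line 14 of 15 mitochondrial members were higher in the pulldown (13.9% of genes) and 8 of 19 cytosolic and dual ones lower (28.1%), where 1 call was made without replicate 1 and 0 without replicate 2. The mitochondrial minus cytosolic difference between paralogs had a median of 2.18 over 16 amino acids, beside the 1.16 of the wild type. For leucine it was 1.65 and 2.08 in the wild-type lysates and 3.20 and 3.43 in the null ones.

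**Figure D4:**
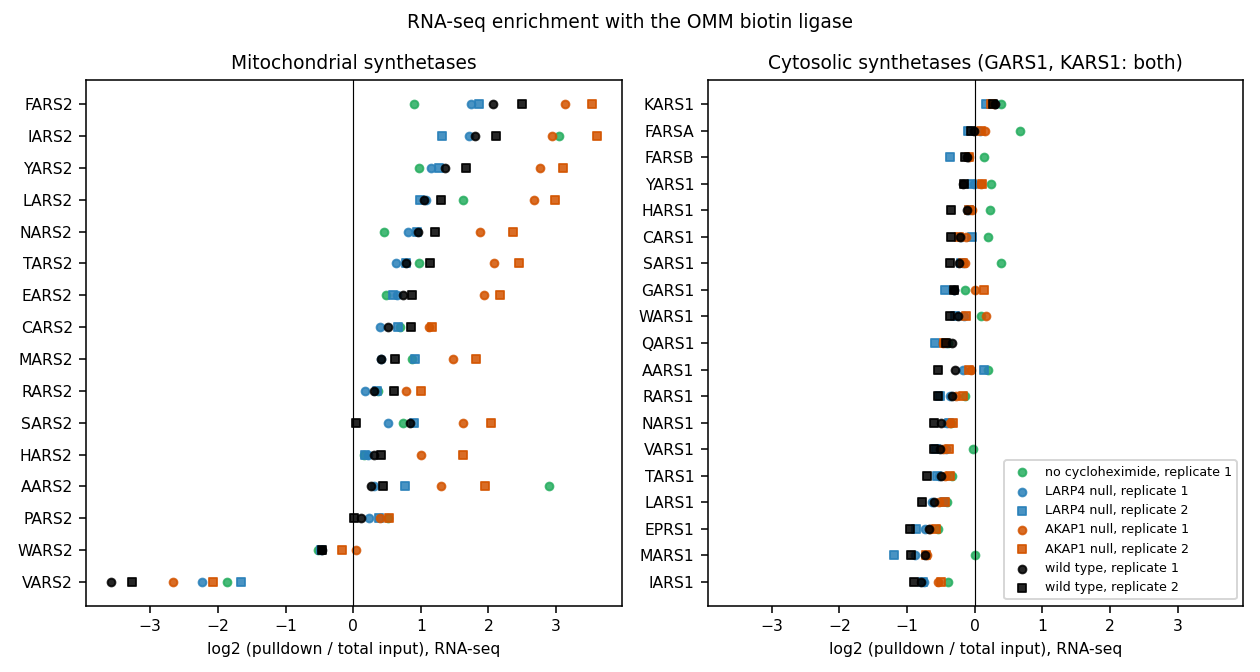
Log2 ratio of pulldown to total input in RNA-seq CPM (x axis) for each mitochondrial (left) and each cytosolic or dual synthetase (right), with 1 point per lysate coloured by line or treatment. Orange AKAP1 null points lie to the right of black wild-type points in all 16 mitochondrial rows, while the points of the lines lie close together in the cytosolic rows.

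The LARP4 null line gave no call in this test. For the difference in enrichment from the wild type, 0 of 34 members were called in edgeR, as were 0 of 13856 genes. At an unadjusted p under 0.05 there were 1 cytosolic member higher and 1 mitochondrial member lower, and none of the 34 was called by DESeq2, which called 2 genes higher and 454 lower in all. At an unadjusted p under 0.05 DESeq2 had 7 of 15 mitochondrial and 2 of 19 cytosolic and dual members, all lower. Of all 13856 genes, 2270 had an unadjusted p under 0.05 in edgeR and 1540 in DESeq2, in either direction. Mitochondrial members had a median of -0.16 against 0.17 over all genes, from -0.49 (FARS2) to 0.27 (SARS2). Both LARP4 null lysates were below both wild-type lysates in 7 of 16 mitochondrial members and above in 2, where 12.1% of 13427 genes were below and 44.4% above. VARS2, under the minimum of reads, was among those above. IARS2 had log2 enrichments of 1.71 and 1.32 in the LARP4 null lysates and 1.80 and 2.12 in the wild-type ones, and LARS2 1.07 and 0.99 beside 1.05 and 1.30. Without LARP4 null replicate 1 the test called 5 members, AARS1 at 0.56, MARS2 at 0.40, MARS1 at -0.35, FARS2 at -0.45 and IARS2 at -0.64, with 4517 genes called higher and 1142 lower in all. Within the LARP4 null line 12 of 15 mitochondrial members were higher than their inputs (22.8% of genes) and 10 of 19 cytosolic and dual ones lower (30.0%). Both null lines were set against the same wild-type libraries.

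The amount of synthetase RNA in the total inputs was not called different in either line. In the AKAP1 null line 0 of 35 members were called by edgeR, 1 had an unadjusted p under 0.05, and DESeq2 called 0, with log2 changes of -0.26 (SARS2) to 0.34 (RARS2) and 0 of 13977 genes called in all. In the LARP4 null line the same 3 counts were 0, 1 and 0, with log2 changes of -0.39 (VARS2) to 0.53 (IARS2), and 0.00715% of genes were called in each direction. Of all 13977 genes, 489 had an unadjusted p under 0.05 in edgeR for the AKAP1 null line and 509 for the LARP4 null line. LARS2 and IARS2, whose enrichment rose in the AKAP1 null line, had input changes of -0.19 and -0.22 there. On simulated total inputs of the AKAP1 null and wild-type lines, this test found 66.5% of log2 changes of 1 and 3% of changes of 0.5. Changes of that size could thus be missed, and the fall of AKAP1 RNA itself was not called. The simulation changed 200 genes and set the spread by the level of a gene alone, so the real shares may be lower.

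The lysate without CHX, whose genotype the labels do not give, has no replicate, so it is compared by position only and with no test. The absence of CHX and the shorter induction cannot be told apart in it. RNA of 14 of 19 cytosolic and dual members (73.7%) in its total input was above all 6 other total inputs, where 30.8% of 13427 genes were, and 7 of 16 mitochondrial members were above and 4 below. IARS1 was at 1439 CPM beside 777 to 914 in the other inputs. The log2 enrichment was above both wild-type lysates for 18 of 19 cytosolic and dual members, where 60.4% of 13427 genes were above and 26.7% below. Their median was 0.005 in this lysate, and that over all genes -0.125, beside -0.288 and -0.328 in the wild-type lysates. Mitochondrial members moved in both directions, 6 above and 6 below the wild-type range. AARS2 was at 2.90, beside 0.27 and 0.44 in the wild type, and IARS2 at 3.05, beside 1.80 and 2.12, while FARS2 was at 0.90, beside 2.06 and 2.50.

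Proteins that work with the synthetases were followed as fixed lists. Of 5 partners of the mitochondrial enzymes, TUFM, the factor that brings charged tRNA to the mitochondrial ribosome, QRSL1, GATB and GATC of the amidotransferase, and MTFMT, which formylates the initiator tRNA, the 4 tested in CDS counts were higher at the OMM, where 17.0% of all genes were. Their values were 1.64 for TUFM, 1.37 for QRSL1, 1.23 for GATB and 0.84 for MTFMT. TUFM was also higher at the ER, at 1.22. In the AKAP1 null line 3 of 5 rose in RNA enrichment (6.52% of all genes), QRSL1 by 1.40, GATB by 1.14 and TUFM by 1.13. Of 3 scaffold proteins of the multisynthetase complex AIMP1 was lower at the OMM in footprints (-0.65) and in wild-type RNA (-1.53), while AIMP2 (0.40) and EEF1E1 (0.59) were higher in wild-type RNA.

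Of 12 tested genes that process or modify mitochondrial tRNAs, 4 were higher at the OMM in CDS counts (17.0% of all genes) and 2 lower (46.0%). ELAC2, which cuts the tRNA 3′ end, stood at 2.42, CDK5RAP1 at 0.62 and HSD17B10 at 0.52, and NSUN3 and OSGEPL1 at -0.74 and -0.52. In the AKAP1 null line 7 of 16 rose in RNA enrichment (6.52% of all genes), led by ELAC2 at 1.53 and PRORP and TRMT10C, subunits of the mitochondrial RNase P, at 1.37 and 1.02. HSD17B10, the remaining subunit of RNase P, was lower at -0.77 (7.96% of all genes were lower). Of 24 targets of ATF4, the stress factor that raises cytosolic synthetase genes, the median log2 change in the total inputs was -0.06 in the AKAP1 null and -0.07 in the LARP4 null line, and 2 rose in RNA enrichment in the AKAP1 null line, ALDH18A1 by 1.24 and SHMT2 by 1.14, a share near the 6.52% of all genes.

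Other nuclear-encoded mitochondrial genes of more than 400 codons, named from the study's list of such genes, were set beside the mitochondrial synthetases of that length, which leaves out WARS2. At the OMM over exons 116 of 218 (53.2%) were called higher, with a median of 0.48, beside 12 of 13 synthetases with a median of 1.88. In wild-type RNA 47.3% of 220 were higher, with a median of 0.23, beside 11 of 14 and 0.74. In the AKAP1 null line 60.5% of the 220 rose, with a median of 0.74, beside 11 of 14 and 1.2. The median of the 166 genes under 200 codons was -0.97 there. Whether the synthetases differ from other long mitochondrial genes was not tested.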

How the data were processed

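Footprints that aligned uniquely to GRCh38 were kept by the authors, who deposited estimated counts per gene, spread over the central positions of each footprint, for all exons and for coding sequences, with RPKM of the latter. For RNA-seq, the authors deposited counts per gene from STAR and featureCounts and a value named FPKM that is 10 times the FPKM these give, here treated as a score and not used. Lines of a broken RNA-seq entry (3 to 7 a file) were left out. Entries of several overlapping genes (1079 of 58849) took 5.86% to 8.56% of footprint counts and stayed in the totals.

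Enrichment was tested with edgeR 4.0.16 (quasi-likelihood, R 4.3.3) on rounded counts, two-sided, with a term per lysate, all 12 libraries of a data type in 1 fit and library totals as scale (TMM for total inputs alone). Genes needed 64 footprints in both total inputs of a location, or a mean of 64 RNA-seq reads, and p-values were adjusted (Benjamini-Hochberg) over all genes tested. Errors of fitted values are SE. Pulldown and total input of a lysate deviated together (correlation 0.60 to 0.88). Between groups, replicates of the same number did so less (-0.07 to 0.34), the most in total inputs of the wild-type and LARP4 null lines. The labels do not say whether the numbers pair lysates across groups. Log2 ratios of single lysates use footprints over exons scaled to the library total (RPM) or RPKM, or CPM with 0.5 counts added. Counts over all exons, and the YARS2 parts, were added after the counted coding lengths were seen.

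Members and lists were chosen with earlier results of these data known. Members may all be named, genes of other lists only where called, at most the 3 highest and 3 lowest. Lists were 5 mitochondrial and 3 cytosolic partners, mitochondrial tRNA maturation genes and ATF4 targets. Sequences, coordinates (GENCODE 44, GRCh38) and codons came from the reference annotation. On simulated data, 92% of log2 changes of 1 and 35% of changes of 0.5 were found at the OMM over 6728 genes, and 75.5% and 6% between the AKAP1 null and wild-type lines over 13856 genes. For RNA levels in the total inputs of those lines the shares were 66.5% and 3%. Each simulation changed 200 genes and set the spread by the level of a gene alone, so the shares in real data may be lower. Alternatives were DESeq2 1.42.0, TMM, other minimums, no term for lysates, a replicate block and leaving out lysates. Python 3.11.15 with matplotlib 3.10.9, pandas 2.3.3 and numpy 2.4.6 made tables and figures.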

Additional observations from a re-analysis of the deposited data

Results flagged for a closer look

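For 11 mitochondrial synthetases the RNA enrichment with the OMM ligase differed between the AKAP1 null and the wild-type line by the test of the difference itself (edgeR, adjusted p under 0.05). The log2 differences, null minus wild type, were 1.27 for AARS2, 1.26 for EARS2, 1.04 for FARS2, 0.95 for HARS2, 1.31 for IARS2, 1.66 for LARS2, 1.14 for MARS2, 1.03 for NARS2, 1.39 for SARS2, 1.31 for TARS2 and 1.42 for YARS2. All 4 comparisons of a null with a wild-type lysate had this direction in each gene, as they did in 54.5% of 13427 genes. The 11 genes were picked by a test on these same lysates, so this order adds no support. Of all genes tested 6.52% were called higher. With 2 replicates a group no group was large enough for a search for lysates that stand apart.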

How the results depend on the processing

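Counts are of called members, with the reported count in parentheses. Fewer cytosolic and dual members were lower at the OMM (14) under DESeq2 (4), TMM (6) and no term for lysates (4), at the ER (17) 9, 9 and 10, and fewer mitochondrial members at the ER (11) 0, 1 and 4. Of all genes 18.8%, 24.4% and 15.0% were lower at the OMM in these settings, and 21.2%, 25.4% and 43.0% at the ER. The 4 of 17 members lower at the OMM under DESeq2 thus lay near the share of all genes. Calls in the cytosol (4) numbered 0 and 1 over exons, the second with the minimum on exon counts, and 1 without the term. Over exons 4.0% of all genes were higher and 5.4% lower, or 3.6% and 6.8% with that minimum. Without the term 0.0% were higher and 0.4% lower. For OMM minus cytosol, cytosolic and dual members lower (8) numbered 5, 5 and, over exons, 19, and for OMM minus ER those higher (5) 1 and 1. The shares of all genes were 15.8%, 20.8% and 42.0% lower, and 13.7% and 14.2% higher. In RNA, cytosolic and dual members lower in the wild type (15) numbered 7 under DESeq2 and 6 under TMM, and in the AKAP1 null line (8) 5 without the term. Shares of all genes lower were 26.6% and 27.8% in the wild type and 11.3% in the AKAP1 null line. LARP4 null total inputs had 1 call with no minimum (IARS2, 0.56), where 0.5% of genes were higher and 0.2% lower. Over exons, no term gave 5 of 19 at the OMM, 6 of 13 mitochondrial at the ER and 0 of 1 in the cytosol, DESeq2 and TMM gave 2 and 2 of 13 at the ER and 0 and 0 of 4 for OMM minus ER, and DESeq2 gave 12 of 19 for OMM minus cytosol. Of all genes, no term gave 17.5%, 43.8% and 0.4% lower at the OMM, at the ER and in the cytosol. DESeq2 and TMM gave 22.2% and 25.7% lower at the ER and 15.2% and 15.5% higher for OMM minus ER. For OMM minus cytosol DESeq2 gave 17.4% lower.

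At the ER the direction turned under DESeq2 and TMM for AARS1 (0.19, 0.23), CARS2 (0.23, 0.27), EARS2 (0.17, 0.21), GARS1 (0.17, 0.21), IARS2 (0.065, 0.10), MARS1 (0.17, 0.21), MARS2 (0.050, 0.086), RARS2 (0.059, 0.096), WARS2 (0.023, 0.063) and, under TMM, HARS1 (0.025), and over exons for CARS2 (0.25, 0.29), EARS2 (0.18, 0.21), IARS2 (0.092, 0.13), MARS2 (0.079, 0.12), RARS2 (0.099, 0.14), WARS2 (0.026, 0.068) and, under TMM, HARS2 (0.028) and PARS2 (0.01). Counts over exons turned QARS1 (0.21), RARS1 (0.10) and TARS1 (0.036) in the cytosol, GARS1 (-0.57) and RARS1 (-0.77) at the OMM, TARS1 (-0.11) for OMM minus ER, and GARS1 (-0.59), HARS1 (-0.90), QARS1 (-0.88), RARS1 (-0.87) and TARS1 (-1.17) for OMM minus cytosol. DESeq2 turned MARS1 at the OMM (0.001), and DESeq2 and TMM turned CARS1 (0.006, 0.016) and HARS1 (0.052, 0.062) in wild-type RNA. The cause was not tested.

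With the replicate number as a block across the lines, 11 mitochondrial members rose in the AKAP1 null line, as without it, while calls over all genes went from 903 higher and 1103 lower to 552 and 901. The numbers are not known to pair lysates, and the block changed no other count of called synthetases by over 1.5 times. Leaving out 1 lysate, with the lone lysate assumed to vary like the other groups, gave 8 to 9 lower cytosolic and dual members at the OMM, 1 to 3 higher than at the ER (0 to 1 over exons), 7 to 10 lower in wild-type RNA and 0 to 1 in AKAP1 null RNA, 2 to 2 cytosol calls over exons, 4 to 10 mitochondrial members that rose in the AKAP1 null line and 0 to 5 changed in the LARP4 null line. The other counts stayed within 1.5 times the reported ones. Pulldowns of fewer than 100 footprints for genes such as PARS2 and WARS2, and the short counted parts, limit the precision.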
